A study of Mus musculus with 6 samples.

Results

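The mitochondrial genes mt-Nd1, mt-Nd2, mt-Nd4, mt-Nd5, mt-Nd6, mt-Cytb and mt-Co1 were followed through a single-cell RNA sequencing (Drop-seq) experiment on the hippocampal CA1 region of mice treated with erythropoietin (EPO). They are 7 of the 20234 genes in the deposited table and were chosen by name from the mitochondrially encoded respiratory chain genes; mt-Co2 and mt-Co3, with almost no UMIs in the table, are not among them. Wild-type male C57Bl6 mice received a single injection of placebo or of 5000 IU/kg recombinant human EPO at postnatal day 28, and CA1 cells were isolated after 6 h. Each group held 3 mice, numbered 1, 3 and 5 for placebo and 2, 4 and 6 for EPO. The labels also carried a D number, which was D1 for mice 1, 2 and 3 and D2 for mice 4, 5 and 6, and the meaning of D is not given in the sources used here.

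The table holds unique molecular identifier (UMI) counts, which stand for captured transcript molecules, for 1000 barcodes per mouse. Barcodes with over 1000 and up to 8000 detected genes and no more than 40% UMIs from mitochondrial (mt-) genes were retained as cells, 973 of 6000. The number of cells per mouse ran from 43 (placebo mouse 3) to 271 (EPO mouse 4), and their summed UMIs from 204479 to 1948490 in the same mice. Of the retained cells, 78 had a barcode sequence that also occurred in another mouse. Placebo mouse 3 rests on few cells, and EPO mouse 6 stood apart from the other mice in its mitochondrial RNA, as described below, so that values without either mouse are given where they differ.

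Mitochondria carry their own small circular genome, which is transcribed from both strands into long precursor RNAs that are cut at the intervening tRNAs into mRNAs and rRNAs. All its protein-coding genes encode subunits of the respiratory chain or of ATP synthase. mt-Nd1, mt-Nd2, mt-Nd4, mt-Nd5 and mt-Nd6 encode subunits of complex I (NADH dehydrogenase), mt-Cytb encodes cytochrome b of complex III, and mt-Co1 encodes the catalytic subunit of complex IV (cytochrome c oxidase). Most other subunits of these complexes are encoded in the nucleus. In neurons, the respiratory chain supplies most of the ATP that ion pumping and synaptic transmission consume.

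In the GRCm38 mouse genome (GENCODE vM21), mt-Nd1 lies at chrM:2751-3707, mt-Nd2 at chrM:3914-4951, mt-Co1 at chrM:5328-6872, mt-Nd4 at chrM:10167-11544, mt-Nd5 at chrM:11742-13565 and mt-Cytb at chrM:14145-15288, all on the plus strand, and mt-Nd6 at chrM:13552-14070 on the minus strand. Each is a single exon without introns. mt-Nd5 and mt-Nd6 point towards each other and overlap by 14 bases at their 3′ ends. These 40-base ends are shown because counts of the neighbours could be exchanged there if strand was not used, with the overlap in capitals; whether the authors counted by strand is not given in the sources used here.
mt-Nd5, chrM:13526-13565, plus strand: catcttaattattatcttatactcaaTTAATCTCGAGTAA
mt-Nd6, chrM:13552-13591, minus strand: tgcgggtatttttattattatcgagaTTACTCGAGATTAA

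Copies of mitochondrial sequence also lie in nuclear chromosomes, and reads from a gene and an identical copy cannot be told apart. The share of each gene that lay in an exact match of at least 40 bases with another annotated transcript was 0% for mt-Nd1 and mt-Nd6, 11.5% for mt-Cytb, 17.2% for mt-Nd2, 27.6% for mt-Nd5, 63.6% for mt-Nd4 and 80.8% for mt-Co1. For mt-Nd4, its first 876 bases were identical to the chromosome 1 pseudogene Gm28439 (chr1:24611535-24612410). For mt-Co1, 1109 bases lay in exact matches with the chromosome 2 pseudogene Gm13340 (chr2:22588103-22589647). Bases 1054 to 1545 of mt-Co1, counted from the start of the gene, matched the pseudogene Gm29216 (chr1:24615706-24616197) at 486 of 492 positions. All 6 mismatches, T1056A, C1057T, A1059G, A1060G, C1062A and A1066T (gene base, position, copy base), fell at its start, which is shown here with the mismatches in capitals.
mt-Co1, chrM:6381-6440, plus strand: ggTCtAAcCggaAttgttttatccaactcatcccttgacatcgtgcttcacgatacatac
Gm29216, chr1:24616138-24616197, minus strand: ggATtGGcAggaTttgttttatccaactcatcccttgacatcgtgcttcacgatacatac

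Of 13 annotated mitochondrial protein-coding genes, 3 more had a row in the table, mt-Co2 and mt-Co3 of complex IV and mt-Atp6 of ATP synthase, with 1, 2 and 1 UMIs over all 973 cells. Their chromosome 1 copies Gm28661, Gm28437 and Gm10925 were identical to them over 681, 783 and 678 bases, and 100%, 99.9% and 99.6% of these genes lay in an exact match. How reads that map to several places were handled is not given in the sources used here, and the part of the copies in any count was not tested. The counts of mt-Co1, mt-Nd4, mt-Nd5, mt-Nd2 and mt-Cytb are uncertain on this account. Their order by share of matches depended on the part of the gene. Over the last 500 bases the share was 95.8% for mt-Co1, 40.8% for mt-Nd5, 33.8% for mt-Nd2, 8.2% for mt-Cytb and 0% for mt-Nd4. The remaining mitochondrial protein-coding genes were not analysed here.

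Per kilobase of gene, the levels summed over all retained cells were 14266.5 UMIs for mt-Nd1, 11313.8 for mt-Cytb, 9377.6 for mt-Nd2, 9300.4 for mt-Nd5, 5369.4 for mt-Nd4, 4103.6 for mt-Co1 and 2809.2 for mt-Nd6. mt-Nd1 had the highest level per kilobase in each of the 6 mice. mt-Nd6, the only one transcribed from the other strand, was below every other member in all mice except placebo mouse 3, in which mt-Co1 was lower (184.5 against 225.4 UMIs per kilobase). Drop-seq primes on stretches of A, and mt-Nd6 also differed there. Its longest run of A was 3 bases. In the other members it was 5 (mt-Cytb), 6 (mt-Nd1), 7 (mt-Nd4, mt-Nd5 and mt-Co1) and 8 bases (mt-Nd2), which was not the order of their levels. The longest runs of mt-Nd2 and mt-Nd6 are shown in capitals, and the part of such runs in the levels was not tested.
mt-Nd2, chrM:4037-4076, plus strand: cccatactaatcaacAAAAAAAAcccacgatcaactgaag
mt-Nd6, chrM:13984-14023, minus strand: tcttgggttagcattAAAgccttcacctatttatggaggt

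The 2 mitochondrial rRNAs took up most of the mitochondrial signal. mt-Rnr2, the 16S rRNA, had 550188 UMIs against 68491 for the 7 genes together, and mt-Rnr1, the 12S rRNA, had 20587. Over all mice together, the summed share of all mt- genes, on which cells are commonly filtered, was thus largely a measure of mt-Rnr2. The 7 genes made up a small part of it. Their part was largest in EPO mouse 6, at 0.929% of UMIs beside 3.12% for all mt- genes. Placebo mouse 3 came next, with 1.74% beside 10.1%.

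**Figure D1:**
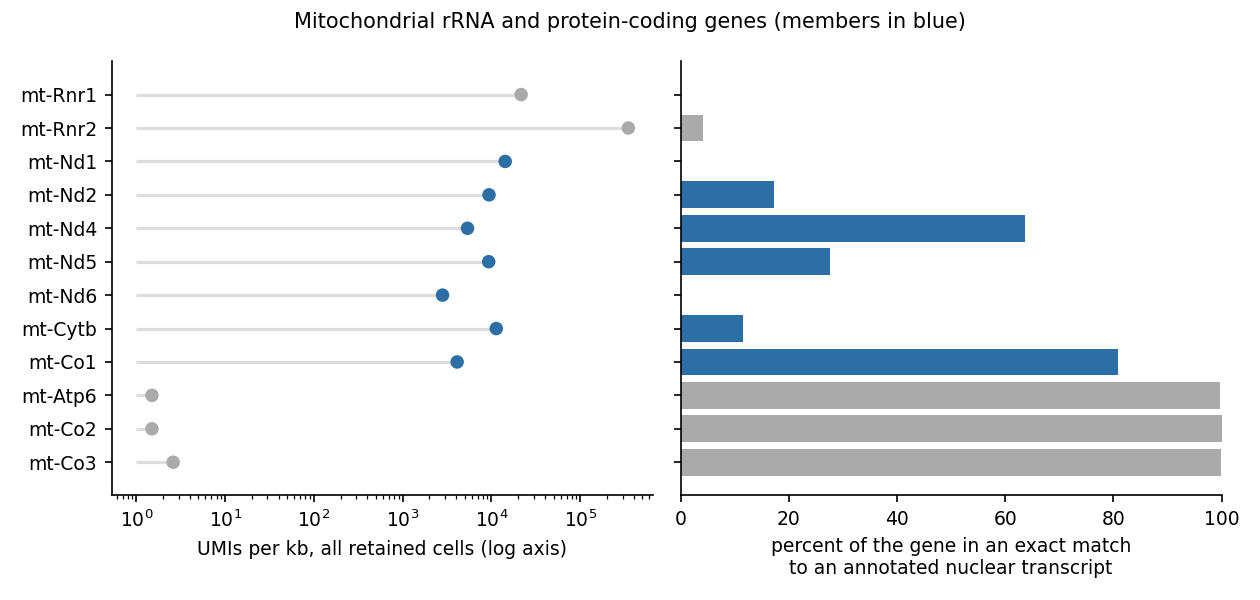
Left, UMIs per kilobase of gene summed over the 973 retained cells (log axis); right, percent of each gene that lies in an exact match of at least 40 bases with an annotated nuclear transcript. Members are in blue and other mitochondrial rRNA and protein-coding genes in gray. mt-Co2, mt-Co3 and mt-Atp6, which lie almost wholly in such matches, had 1 or 2 UMIs, whereas mt-Nd1 and mt-Nd6 had no match.

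The first comparison asked whether the mitochondrially encoded genes responded to EPO within 6 h. They did not differ detectably between the groups, and the spread between mice was larger than any difference. The 7 genes together made up 0.976% (95% Clopper-Pearson interval 0.958 to 0.994), 1.74% (1.68 to 1.79) and 0.615% (0.602 to 0.629) of UMIs in placebo mice 1, 3 and 5. In EPO mice 2, 4 and 6 they made up 1.61% (1.58 to 1.63), 0.915% (0.902 to 0.929) and 0.929% (0.913 to 0.945). These intervals cover counting error only. The groups overlapped, with a placebo mouse at both the top and the bottom.

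The mean share was 1.11% ± 0.572 (SD, n = 3) in placebo and 1.15% ± 0.395 (SD, n = 3) in EPO mice, a difference of 0.0413 percentage points (two-sided exact permutation test, p = 1.0, where 3 mice against 3 cannot go below 0.1). All 3 D1 mice lay above all 3 D2 mice. Within D1 the EPO mouse exceeded the mean of the placebo mice by 0.2501 points, and within D2 the EPO mice exceeded the placebo mouse by 0.307 points. The mean within-D difference was 0.279 points (permutation within D, exact p = 0.444). The 1 or 2 mice per group and D allow no firmer statement. In glutamatergic-like cells the difference was -0.279 points (exact p = 0.8) and in oligodendrocyte-like cells -0.0111 points (exact p = 0.9), and both turned positive with D as a block (0.0790 and 0.0448 points). In sums over all cells, a shift in the mix of cell types and a change in RNA per cell cannot be told apart.

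Among single genes, mt-Nd5 had the most UMIs over all mice together, though not in EPO mouse 6, where mt-Cytb (0.228%) and mt-Nd1 were above it. It was at 0.251%, 0.417% and 0.174% of UMIs in placebo mice 1, 3 and 5 and 0.419%, 0.253% and 0.153% in EPO mice 2, 4 and 6. mt-Nd1 was at 0.193%, 0.383% and 0.118% in placebo and 0.317%, 0.161% and 0.219% in EPO mice. mt-Co1 was at 0.0937%, 0.139% and 0.0384% in placebo and 0.189%, 0.0914% and 0.0666% in EPO mice. The groups overlapped for each of them, and likewise for mt-Nd2, mt-Nd4, mt-Nd6 and mt-Cytb. Exact p ranged from 0.7 to 1.0 over the 7 genes, and each was 1.0 after Benjamini-Hochberg adjustment over these 7 comparisons.

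A fit across all genes gave the same picture. In edgeR's quasi-likelihood test on summed UMIs per mouse, 0 of 7 members passed an adjusted p of 5% in all cells, as did 0% of the 10060 genes tested, and 0 of 7 members did in glutamatergic-like cells, beside 0% of 8824 genes. The members' log2 fold changes (EPO against placebo) in all cells ran from -0.24 for mt-Nd6 (SE 0.59) to 0.32 for mt-Co1 (SE 0.52), with an adjusted p of 1.00 each. At an unadjusted p under 0.05, 131 and 163 genes passed in the respective fits, and no member was among them. limma and DESeq2 also called 0 genes in either. edgeR without the filter on low counts called 52 genes in all cells and 11 in glutamatergic-like cells. With the filter but without placebo mouse 5, it called 6 genes in glutamatergic-like cells. No member was among the genes called in these alternatives. The genes with the smallest p were Slc17a6, a vesicular glutamate transporter (log2 fold change 1.35), and Lxn, a carboxypeptidase inhibitor (1.35), with an adjusted p of 1.00 each.

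**Figure D2:**
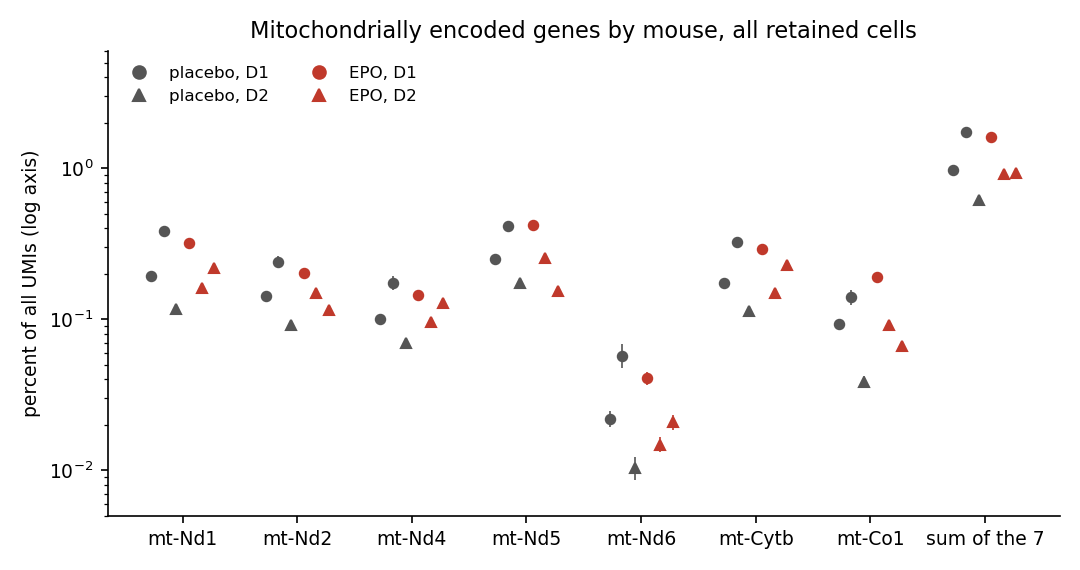
Percent of all UMIs in retained cells (log axis) for each of the 7 genes and their sum, with 1 point per mouse and 95% Clopper-Pearson intervals, which are mostly smaller than the points. Gray is placebo, red is EPO, circles are D1 and triangles D2; the summed share runs from 0.615% to 1.74% and both extremes are placebo mice.

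The 7 genes varied widely between mice, as did the mitochondrial rRNAs. The summed share in the highest mouse was 2.82 times that in the lowest, beside 3.67 times for mt-Rnr1 and 6.29 times for mt-Rnr2, and it was 4.74 times in glutamatergic-like cells. The latter became 2.97 without placebo mouse 3 and 3.01 without placebo mouse 5. mt-Nd6 and mt-Co1 had the widest ranges, 5.57-fold and 4.93-fold, and mt-Nd4 the narrowest, 2.49-fold. The biological coefficient of variation between mice of a group, as edgeR estimated it, was 33.5% for mt-Nd4 to 50.1% for mt-Nd6, against a median of 24.7% over all genes tested. Between 2.59% and 13.6% of genes had a higher dispersion than the respective member. In simulated counts with the means and depths of these mice, a 4-fold change was recovered for 77% of the changed genes. These genes were drawn at random and simulated with the dispersion trend over all genes, not with the members' own dispersion. The 77% therefore does not give the recovery for the members.

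The proportions of the 7 genes to each other varied less between mice than their level. The highest mouse was 1.32 to 2.04 times the lowest in a gene's share of the members' UMIs, against 2.49 to 5.57 times in its share of all UMIs, and 1 mouse stood apart. In the 3 placebo mice and EPO mice 2 and 4, mt-Nd5 made up 24.0% to 28.2% of the members' UMIs and mt-Cytb 16.3% to 18.8%. In EPO mouse 6, mt-Nd5 was at 16.4% and mt-Cytb was at 24.5%, while mt-Nd1 (23.5%) and mt-Nd4 (13.7%) were above all other mice as well. The same mouse had the lowest mt-Rnr2 share, 2.04% of UMIs against 6.00% to 12.8% elsewhere, and 2.196 mt-Rnr2 UMIs per member UMI against 4.59 to 11.6. Its summed member share, 0.929%, was close to the median of the mice (0.953%). EPO mouse 6 was labelled D2 like EPO mouse 4 and placebo mouse 5, which did not share this composition.

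EPO mouse 6 also stood apart in the barcodes with up to 1000 genes, which were not retained as cells. In that mouse, mt-Nd5 made up 16.4% and mt-Cytb 24.4% of member UMIs in those barcodes, against 25.3% to 32.8% and 15.6% to 19.1% in the other mice. In placebo mouse 1, mt-Nd5 was at 32.8% in those barcodes and 25.7% in cells. Between EPO and placebo mice the exact p of the 7 proportions in cells ran from 0.4 to 1.0, where 0.1 is the smallest that 3 mice against 3 allow. The proportion of mt-Co1 (exact permutation p = 0.4) was higher in EPO mice by 2.97 points within D1 and by 2.33 points within D2. mt-Nd2 (-1.65 and -0.411 points) and mt-Cytb (0.0287 and 1.88) also kept their direction, and mt-Nd1, mt-Nd4, mt-Nd5 and mt-Nd6 did not. The EPO value within D1 is mouse 2 alone, and the placebo value within D2 is mouse 5 alone.

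**Figure D3:**
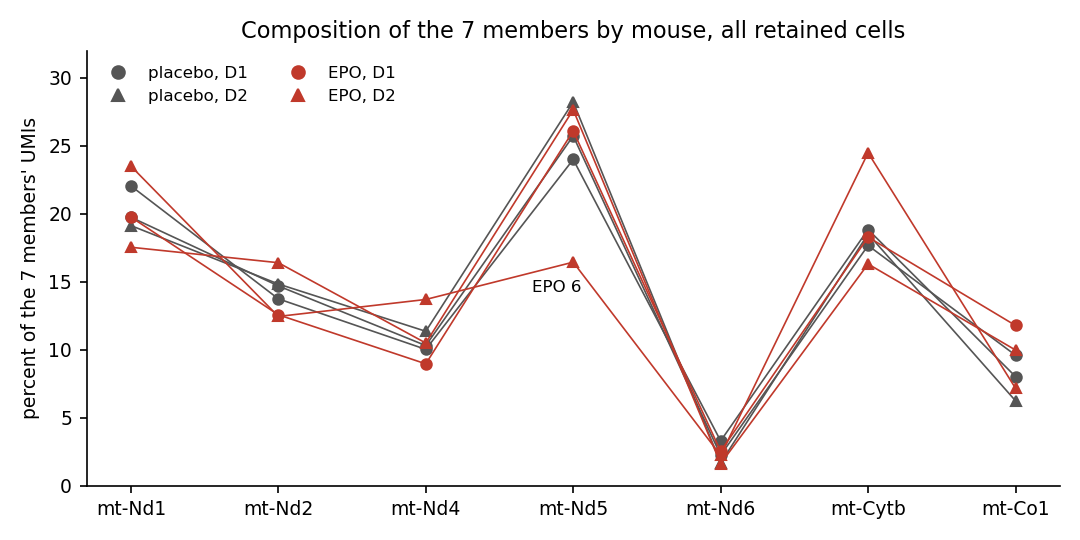
Percent of the 7 members' summed UMIs taken by each gene in all retained cells, with 1 line per mouse (gray placebo, red EPO, circles D1, triangles D2). In EPO mouse 6, mt-Nd5 is at 16.4% and mt-Cytb at 24.5%, outside the range of the other 5 mice.

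Cells were then grouped by clustering without the mt- genes, so that the members had no part in it, and clusters were named from markers. This gave 620 glutamatergic-like neurons, 165 oligodendrocyte-like, 75 astrocyte-like, 56 GABAergic-like, 39 endothelial-like and 18 microglia-like cells. The endothelial-like cluster also carried hemoglobin transcripts, and 61 of the oligodendrocyte-like cells formed a cluster with some markers of oligodendrocyte precursors. Classes were compared within mice that held at least 5 cells of each, by exact sign-flip tests, for which the smallest two-sided p is 0.031 with 6 mice and 0.0625 with 5.

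Taken as whole classes, GABAergic-like and glutamatergic-like cells had the highest and the most variable shares of the 7 genes. This did not hold in every mouse, as glutamatergic-like cells were below oligodendrocyte-like cells in placebo mouse 5. It did not hold for every glutamatergic-like cluster either, as given below. In GABAergic-like cells the summed share was 2.37% and 0.941% in placebo mice 1 and 5, and 4.33%, 1.62% and 2.29% in EPO mice 2, 4 and 6. Glutamatergic-like cells were at 1.06%, 2.77% and 0.586% in the placebo mice 1, 3 and 5, and 1.74%, 0.928% and 0.921% in the EPO mice 2, 4 and 6. In oligodendrocyte-like cells it was 0.726%, 0.777% and 0.663%, and 0.875%, 0.655% and 0.602%. Oligodendrocyte-like cells thus spanned 1.45-fold over the 6 mice, where glutamatergic-like cells spanned 4.74-fold. Astrocyte-like cells ranged from 0.522% to 1.06% (6 mice) and endothelial-like cells from 0.431% to 0.630% (5 mice).

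GABAergic-like cells exceeded glutamatergic-like cells in 5 of 5 mice, with a difference of -1.26 points for glutamatergic-like minus GABAergic-like (exact sign-flip, p = 0.0625). Over the 13 alternatives that kept all mice, including the sum of all mt- genes, this difference was -8.41 to -0.740 points. With a limit of 20% mt- UMIs per cell, 25 cells were GABAergic-like, against 56 here. Glutamatergic-like cells exceeded astrocyte-like cells by 0.495 points in 6 of 6 mice (exact p = 0.031), endothelial-like cells by 0.536 points in 5 of 5 (exact p = 0.0625) and oligodendrocyte-like cells by 0.619 points in 5 of 6 (exact p = 0.0625). After adjustment over these 4 comparisons p was 0.0625 for each, so that none passed 5%. The order turned for astrocyte-like cells when all mt- genes were summed in place of the 7, with a difference of -4.88 points and glutamatergic-like cells lower in 6 of 6 mice. mt-Rnr2 alone made up 4.33% to 19.4% of UMIs in astrocyte-like and 1.83% to 12.7% in glutamatergic-like cells. Under a stricter limit of 20% mt- UMIs per cell the differences shrank to 0.0688 points from astrocyte-like cells (3 of 6 mice higher) and 0.202 points from oligodendrocyte-like cells, and without placebo mouse 3 the differences were 0.25 and 0.343 points.

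The glutamatergic-like average hid a wide range between clusters. In the CA1-like cluster led by Hpca, a calcium sensor of pyramidal neurons, with a median of 10628 UMIs per cell, the summed share was 0.395% to 0.614% in the 5 mice with at least 5 cells. In the Rxfp1 and Tshz2 type it was 0.544% to 0.817% (5 mice). In the CA1-like cluster led by Grin2b, a glutamate receptor subunit, it was 0.910% to 2.19% (5 mice), and in the cluster led by Cpne7 it was 1.27% to 4.21% (6 mice). Among the neuron subtypes, the Cpne7-led cluster scored highest for CA1 and was counted with the CA1-like neurons. Its CA1 score was below those of the Hpca-led and Grin2b-led clusters. None of its 10 leading genes was a glutamatergic marker, as in the unnamed, Rxfp1 and Tshz2 type and subiculum-like clusters. The hemoglobin gene Hbb-bs was 1 of the 10. It made up 1.06% of the cluster's non-mt UMIs in placebo mouse 1 and 0.00233% to 0.0243% in the other mice. An unnamed glutamatergic cluster whose leading genes included Tshz2 and Rxfp1 was at 1.58% to 6.26% (6 mice). The last 3 of these had medians of 3641 to 4515 UMIs per cell.

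Within each of the 5 mice, the Cpne7-led cluster had 3.21 to 4.37 times the member share of the Hpca-led cluster, the Grin2b-led cluster 2.31 to 3.57 times, and the unnamed cluster 4.00 to 7.69 times. CA1-like neurons as a whole lay below the unnamed cluster in 6 of 6 mice (difference -2.05 points, sign-flip, exact p = 0.031, 0.0625 after adjustment over 2 comparisons), and above the Rxfp1 and Tshz2 type by 0.295 points in 4 of 5 mice (exact p = 0.125). Without the Cpne7-led cluster these differences were -1.79 points (0 of 5 mice higher, exact p = 0.0625) and 0.0745 points (3 of 5, exact p = 0.5). Glutamatergic-like cells without it exceeded astrocyte-like cells by 0.342 points in 4 of 6 mice (exact p = 0.188) and oligodendrocyte-like cells by 0.466 points in 5 of 6 (exact p = 0.0625). Microglia-like and subiculum-like cells reached 5 cells in fewer than 3 mice and were not tested.

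Between the Cpne7-led and the Hpca-led cluster, other transcripts differed as well. mt-Rnr2 was 3.31 to 5.05 times as high in the Cpne7-led as in the Hpca-led cluster in the same mice. Malat1, a long noncoding RNA that stays in the nucleus, was 5.28 to 8.94 times as high. The nuclear-encoded subunits of the respiratory chain went the other way and were at 0.140 to 0.267 times. There were therefore 14.3 to 35.0 times as many member UMIs per UMI of the nuclear-encoded subunits in the Cpne7-led cluster. The Grin2b-led and the unnamed cluster differed from the Hpca-led cluster in the same directions, but other pairs did not. In the unnamed against the Cpne7-led cluster, members were at 1.24 to 1.76 times, but Malat1 at 0.773 to 0.979 times (6 mice). The nuclear-encoded subunits were higher in 5 of these 6 mice. In the Rxfp1 and Tshz2 type against the Hpca-led cluster, members were at 1.18 to 1.66 times, but Malat1 at 0.702 to 0.841 times (5 mice). The nuclear-encoded subunits were higher there in 4 of 5 mice. Without the Grin2b-led, Cpne7-led and unnamed clusters, the 3 of low UMI count, glutamatergic-like cells were no longer above oligodendrocyte-like cells. The difference was -0.0900 points (2 of 6 mice higher, exact sign-flip p = 0.25). In the GABAergic-like against the Hpca-led cluster, members were at 2.38 to 7.05 times and Malat1 at 2.08 to 6.55 times (5 mice). The nuclear-encoded subunits were higher there in 1 of 5 mice. The part of cell quality or depth in the class differences was not tested.

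**Figure D4:**
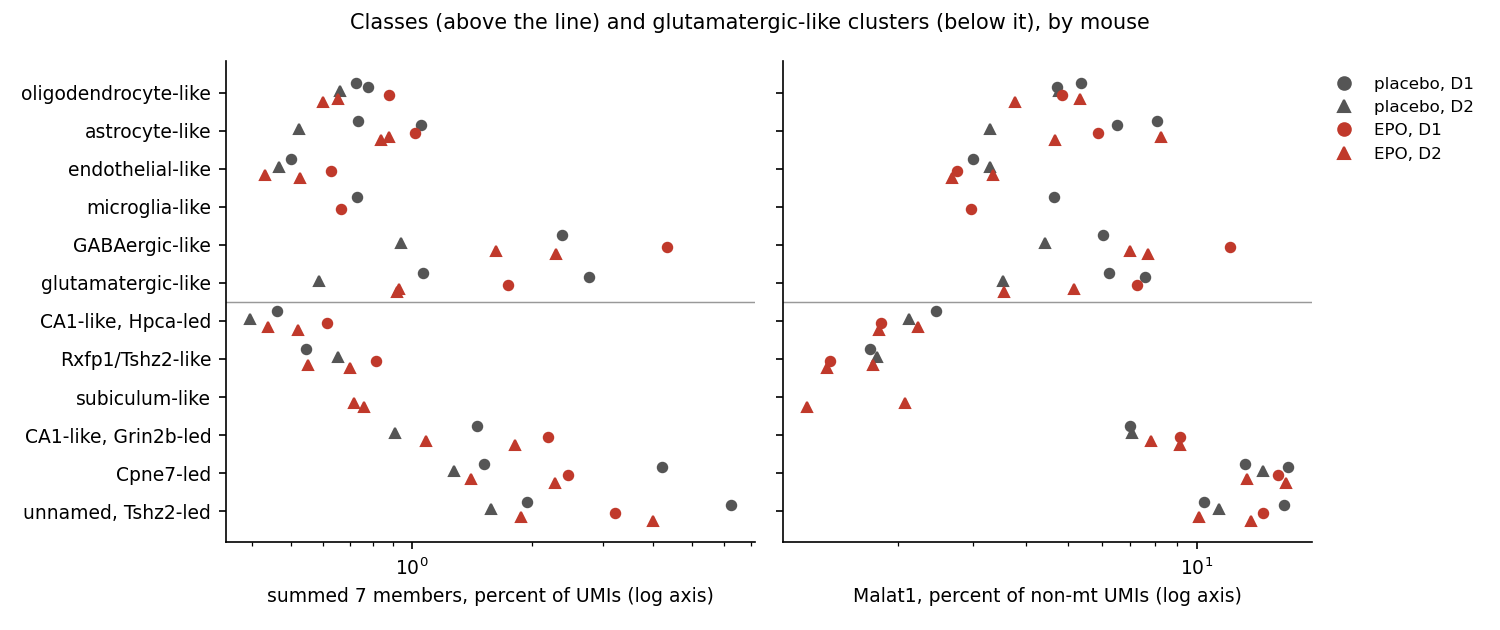
Percent of UMIs from the 7 members (left, log axis) and Malat1 as percent of the UMIs of non-mt genes (right, log axis), for cell classes above the line and glutamatergic-like clusters below it. Points are mice with at least 5 cells of the kind (gray placebo, red EPO, circles D1, triangles D2); the 3 lowest lines of clusters are high in both panels, and the Hpca-led cluster is at 0.395% to 0.614% for the members.

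Across glutamatergic-like cells of a mouse, Spearman's rho between the member share and UMIs per cell was -0.26 to -0.59 over the 6 mice (16 to 166 cells each). It was 0.77 to 0.91 with the mt-Rnr2 share, 0.42 to 0.75 with Malat1 and -0.29 to -0.70 with the nuclear-encoded subunits. These are descriptions, because the cells of a mouse share a library and the shares a denominator. Over 30 sums of a mouse and class, the non-mitochondrial genes whose share was most like that of the summed members were Luc7l3 (Pearson's r = 0.84), a splicing factor, Pabpn1 (0.82), the nuclear poly(A)-binding protein, Malat1 (0.81), A330076H08Rik (0.81) and Srrm2 (0.80), a spliceosome component, out of 8320 genes. Each member reached 0.86 to 0.95 with the sum it is part of. mt-Rnr1 reached 0.71 and mt-Rnr2 0.47.

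The proportions among the 7 genes differed between neurons and oligodendrocytes in the same direction in every mouse for 6 of the 7 genes. mt-Nd5 made up 27.98%, 24.8% and 29.8% of member UMIs in glutamatergic-like cells of placebo mice 1, 3 and 5 and 27.0%, 28.6% and 16.9% in EPO mice 2, 4 and 6. In oligodendrocyte-like cells it made up 18.7%, 16.9% and 19.7% in the placebo mice and 17.9%, 21.1% and 10.9% in the EPO mice. It was higher in glutamatergic-like cells in every mouse, also in EPO mouse 6, in which both values were low. The mean difference was 8.33 points.

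mt-Nd1 was also higher in glutamatergic-like cells in 6 of 6 mice (18.5% to 24.3% against 13.5% to 18.9%, mean difference 4.30 points), as was mt-Nd6 (1.63% to 4.05% against 0.973% to 1.82%, 1.06 points). mt-Cytb, mt-Co1 and mt-Nd4 were lower in 6 of 6 mice, with mean differences of -5.20, -4.75 and -3.57 points. mt-Cytb made up 15.3% to 23.9% in glutamatergic-like and 19.8% to 30.9% in oligodendrocyte-like cells. mt-Co1 made up 6.18% to 11.1% against 9.73% to 17.8%, and mt-Nd4 8.58% to 13.4% against 11.5% to 16.9%. For these 6 genes the exact sign-flip test gave p = 0.031, the smallest that 6 mice allow, and 0.0365 after adjustment over the 7 shares. When any 1 mouse was left out the smallest possible p was 0.0625, and none passed. Without the Cpne7-led cluster the same 6 genes passed, with mt-Nd5 at 8.14 points. Over the 12 alternatives that kept all mice, 5 to 6 genes passed. mt-Nd6 kept its call in 10 of these 12, and its difference was as low as 0.356 points. mt-Nd2 differed by -0.18 points (3 of 6 mice higher, exact p = 0.656). The 7 shares add up to a fixed total and are not independent of each other.

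Unlike the sum, these differences were also present in the Hpca-led cluster of high UMI count. There mt-Nd5 exceeded oligodendrocyte-like cells by 8.14 to 11.4 points, and mt-Nd6 was higher, and mt-Cytb, mt-Co1 and mt-Nd4 lower, in 5 of 5 mice. mt-Nd1 was higher in 4 of 5 of them. mt-Nd5 was higher and mt-Cytb, mt-Co1 and mt-Nd4 were lower in every mouse in each of the other 4 glutamatergic-like clusters examined as well. The difference between the classes did not itself differ detectably between placebo and EPO mice for any gene (exact p from 0.2 to 0.9). Of the members higher in oligodendrocyte-like cells, 80.8% (mt-Co1), 63.6% (mt-Nd4) and 11.5% (mt-Cytb) of the gene lay in exact nuclear matches. Of those higher in glutamatergic-like cells it was 27.6% for mt-Nd5 and 0% for mt-Nd1 and mt-Nd6. Over the last 500 bases the share was 95.8% for mt-Co1, 40.8% for mt-Nd5, 8.2% for mt-Cytb and 0% for mt-Nd4. The part of nuclear copies in the class differences was not tested.

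The other classes had proportions of their own. In astrocyte-like cells mt-Nd1 made up 9.37% to 15.8% of member UMIs, below glutamatergic-like cells in 6 of 6 mice with a mean difference of -9.06 ± 1.83 points (SD, n = 6), while mt-Nd5 was higher in 3 of 6 mice and lower in the others. In endothelial-like cells mt-Nd5 was lower and mt-Cytb and mt-Co1 were higher than in glutamatergic-like cells in 5 of 5 mice. GABAergic-like cells were near glutamatergic-like cells for most members, with mt-Nd6 higher in 5 of 5 mice by 1.22 points on average. These values rest on 89 to 2258 member UMIs per mouse and class and are given without a test.

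**Figure D5:**
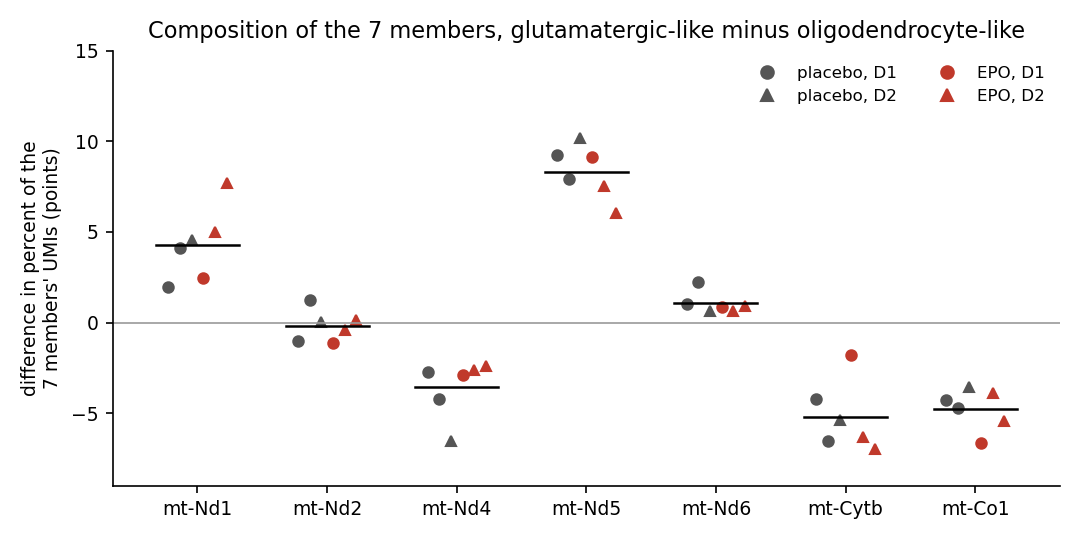
Difference between glutamatergic-like and oligodendrocyte-like cells of the same mouse in the percent of the 7 members' UMIs taken by each gene (gray placebo, red EPO, circles D1, triangles D2; bars are means over 6 mice). mt-Nd1, mt-Nd5 and mt-Nd6 lie above 0 and mt-Nd4, mt-Cytb and mt-Co1 below 0 in all 6 mice.

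Relative to all genes, 4 of 7 members were higher in glutamatergic-like than in oligodendrocyte-like cells in edgeR's quasi-likelihood test with the mouse as a block, and none was lower. This fit was not run without the 3 clusters of low UMI count together, and their part in these calls was not tested. In summed member share, the oligodendrocyte-like cluster of 104 cells was at 1.35 to 1.68 times the Hpca-led cluster, higher in 5 of 5 mice. The background was wide, as 53.8% of the 9100 genes tested passed, 32.4% higher and 21.4% lower, and the 7 members were not tested against it as a list. mt-Nd6 had the largest fold, with 0.0240%, 0.112% and 0.00956% of UMIs in glutamatergic-like cells of placebo mice 1, 3 and 5 and 0.0424%, 0.0159% and 0.0202% in EPO mice 2, 4 and 6, against 0.00645% to 0.0142% in oligodendrocyte-like cells. Its log2 fold change was 1.43 (SE 0.23, adjusted p = 1.52e-09) and it was higher in 6 of 6 mice. mt-Nd5 followed at 1.11 (SE 0.22, adjusted p = 2.09e-06), mt-Nd1 at 0.89 (SE 0.22, adjusted p = 0.000129) and mt-Nd2 at 0.52 (SE 0.21, adjusted p = 0.0257).

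The call for mt-Nd2 was lost in DESeq2 (adjusted p = 0.0555), in limma (0.0750) and without placebo mouse 3 (0.299), EPO mouse 2 (0.0888), EPO mouse 4 (0.0509) or EPO mouse 6 (0.0637) and without the Cpne7-led cluster (0.168) in edgeR, whereas mt-Nd1, mt-Nd5 and mt-Nd6 passed in each of these alternatives. The remaining members had log2 fold changes of 0.12 (mt-Nd4), 0.19 (mt-Cytb) and -0.10 (mt-Co1, which turned to 0.07 with scaling by total UMIs; mt-Nd4 turned to -0.14 and mt-Cytb to -0.05 without the Cpne7-led cluster), with adjusted p from 0.480 to 0.702. The median over the 7 members was 0.52 beside 0.23 over all genes tested, which became 0.45 with scaling by total UMIs.

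The nuclear-encoded partners of the members did not move as a block in this contrast. Of 37 nuclear-encoded complex I genes tested, 8 were higher, 4 lower and 25 did not pass, among them Ndufa4 (log2 fold change 0.88, adjusted p = 2.73e-05) and Ndufa5 (0.93, 2.17e-05) as higher. For complex III, whose cytochrome b is mt-Cytb, 1 of 9 was higher and none lower. For complex IV, the enzyme of mt-Co1, 4 of 11 were higher and 1 lower, Cox6a1 (-0.42, adjusted p = 0.0435, edgeR). For ATP synthase, 5 of 15 were higher, such as Atp5b (0.79, adjusted p = 0.000203), and 1 lower. The median log2 fold changes of these lists were 0.26, 0.25, 0.23 and 0.36. mt-Rnr2 (-0.08, SE 0.34) and mt-Rnr1 (0.18, SE 0.22) did not pass.

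Among genes for mitochondrial transcription and RNA handling, 2 of 11 were higher, Lrpprc (0.74, adjusted p = 0.0162), which keeps mitochondrial mRNAs stable, and Grsf1 (0.76, adjusted p = 0.0155), a protein of mitochondrial RNA granules. Slirp, the partner of Lrpprc, was the 1 lower (-0.57, adjusted p = 0.0422). Of 5 regulators of mitochondrial biogenesis 3 were higher, Ppargc1a (3.28), Ppargc1b (4.82) and Esrra (1.42), each with an edgeR adjusted p of 0.0132 or less. Ppargc1b had 0 UMIs in oligodendrocyte-like cells of placebo mice 3 and 5 and EPO mice 2, 4 and 6. Ppargc1a had 0 UMIs there in placebo mice 3 and 5 and EPO mouse 6. The sizes of these folds are therefore not well determined. Of 7 nuclear-retained RNAs 5 were higher and 1 lower, and Malat1 did not pass (-0.03, SE 0.31). Of 8 early response and stress genes 5 were higher, among them Egr1 (4.19), and 1 lower, Jun (-1.31, adjusted p = 6.44e-09, edgeR), a transcription factor that rises during tissue dissociation. Egr1 also had 0 UMIs in oligodendrocyte-like cells of placebo mouse 5 and EPO mice 2 and 6. In EPO against placebo, 0 genes of any of these lists passed in all cells or in glutamatergic-like cells.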

How the data were processed

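CA1 cells of 6 mice were profiled by Drop-seq. The authors deposited raw UMI counts per gene and barcode, not normalized. The submitters' processing notes name bcl2fastq 2.15, STAR 2.4.0 and mm10; the annotation and the handling of reads with several matches are not given in the sources used here. A gene missing in a mouse was set to 0. The filters on barcodes follow the study's methods. Clustering used Seurat 5.3.0 in R 4.3.3 (treatments integrated by anchors, resolution 1) after the mt- genes were removed. Clusters were named after the class with the highest mean marker level and at least 3 markers seen in 10% of cells; the scoring was set after the values were seen.

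Shares are summed UMIs over cells of a mouse, compared by exact permutation (mice) or exact sign-flip tests (classes within mice) in Python 3.11.15. UMI sums were tested with edgeR 4.0.16 (quasi-likelihood, trimmed-mean scaling, at least 10 UMIs in 3 sums, Benjamini-Hochberg at 5%), with limma 3.58.1 and DESeq2 1.42.0 as alternatives. edgeR was tested on counts simulated with the dispersion trend over all genes, with 200 randomly drawn genes changed 4-fold. Of these, 77% (all cells, 9683 genes), 78% (glutamatergic-like, 8445 genes) and 82.5% (classes, 8388 genes) were recovered, and 0 were called when none was changed.

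Besides the 7 members, genes named are the other mt- rRNA and protein-coding genes, the 5 non-mt genes most like the summed members among those with at least 100 UMIs, up to 3 genes per list by mean level, and the gene with the smallest p in EPO tests. The members and lists were chosen with earlier results of these data known. Depth per mouse is given in the report, and p-values measure the spread between these mice. Doublets were called by Scrublet (28 cells) and removed only in an alternative. Gene positions and sequences are from GENCODE vM21 (GRCm38, the same build as mm10), and the search for copies covered its annotated transcripts only.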

Additional observations from a re-analysis of the deposited data

Results flagged for a closer look

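A signal of the 7 genes was also present outside the cells that the comparisons used. In the 5012 barcodes with up to 1000 detected genes, the summed members made up 2.13%, 3.51% and 1.40% of UMIs in placebo mice 1, 3 and 5 and 3.00%, 1.75% and 2.45% in EPO mice 2, 4 and 6. These shares were above those of the retained cells in 6 of 6 mice.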

How the results depend on the processing

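Of 282 alternatives to the values that answer a comparison, 251 stayed the same, 19 reversed, 6 were weaker and 6 moved. For differences, the same means direction and side of the 5% threshold, and for counts and spreads a similar size. Of 511 for single genes, 401 kept direction and side, 65 reversed and 45 were weaker. Exact tests of 3 mice against 3, or of pairs from 5 mice, cannot pass 5%. Their side of the threshold was fixed in advance and is no sign of stability. No EPO difference of a share passed a test, so its sign carries little. No paired analysis was possible because placebo mice (1, 3, 5) and EPO mice (2, 4, 6) share no replicate number; the D number served as a block instead. The cause of the changes was not tested. CA1-like neurons against the unnamed cluster gave no value with a limit of 20% mt- UMIs, with mt- genes kept in the clustering, at resolution 2 or with classes per cell. Those against the Rxfp1 and Tshz2 type gave none with the 20% limit, with over 500 genes or with classes per cell. Leaving out shared barcodes, scaling over non-mt genes and leaving out the clusters of low UMI count or the Cpne7-led cluster alone were chosen after seeing the data.

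EPO minus placebo in the summed share reversed to -0.398 points over all mt- genes. In glutamatergic-like cells it reversed to 0.119 (median per cell), 0.0790 (D block) and 0.339 (D2). In oligodendrocyte-like cells it reversed to 0.00841 (no limit on mt- UMIs, and likewise with mt- genes kept in the clustering), 0.0384 (over 500 genes), 0.0456 (no shared barcodes), 0.0448 (D block) and 0.124 (D1). Leaving out 1 mouse gave -0.206 to 0.355, -0.724 to 0.371 and -0.0934 to 0.0432 points in all, glutamatergic-like and oligodendrocyte-like cells. The highest mouse over the lowest moved to 2.01 (20% limit) and 4.80 (all mt- genes), and to 2.75 in glutamatergic-like cells (20% limit), with 1.90 to 2.82 and 2.97 to 4.74 when 1 mouse was left out. Glutamatergic-like minus oligodendrocyte-like reversed to -0.0900 without clusters of low UMI count, and minus astrocyte-like to -4.88 over all mt- genes. Without any 1 mouse, 0 of 7 proportions passed between glutamatergic-like and oligodendrocyte-like cells, because 5 mice cannot reach an exact p below 0.0625; mt-Nd2 ranged from -0.47 to 0.0041 points, and was at 0.0820 without the Cpne7-led cluster.

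In the EPO comparison of proportions, mt-Nd1 reversed to 0.0425 (no doublet calls), 0.406 (no shared barcodes) and 0.179 points (mean per cell), and mt-Nd6 to 0.275 (20% limit) and 0.253 (mean per cell). Leaving out 1 mouse gave -1.66 to 1.32 (mt-Nd1), -1.92 to 0.0608 (mt-Nd2), -0.835 to 1.53 (mt-Nd4), -4.72 to 0.890 (mt-Nd5), -0.642 to 0.170 (mt-Nd6) and -1.05 to 3.04 (mt-Cytb).

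The EPO log2 fold change of mt-Nd1 in all cells reversed to 0.0118 (total UMIs), 0.0146 (non-mt UMIs), 0.00823 (no filter), 0.06 (limma) and 0.40 (D block), and with the D block mt-Nd2 to 0.31, mt-Nd5 to 0.28 and mt-Nd6 to 0.42. In glutamatergic-like cells the D block reversed mt-Nd1 to 0.27, mt-Nd2 to 0.16, mt-Nd4 to 0.31, mt-Nd5 to 0.12, mt-Nd6 to 0.18 and mt-Cytb to 0.37. Leaving out 1 mouse gave, in all cells, -0.43 to 0.54 (mt-Nd1), -0.38 to 0.39 (mt-Nd2), -0.27 to 0.48 (mt-Nd4), -0.57 to 0.37 (mt-Nd5), -0.84 to 0.62 (mt-Nd6), -0.27 to 0.60 (mt-Cytb) and -0.31 to 0.78 (mt-Co1). In glutamatergic-like cells it gave -0.83 to 0.57, -0.81 to 0.39, -0.60 to 0.51, -0.97 to 0.32, -1.35 to 0.61, -0.62 to 0.66 and -0.60 to 0.79 in that order. Against oligodendrocyte-like cells, mt-Co1 reversed to 0.0685 (total UMIs), 0.0907 (non-mt UMIs), 0.13 (no filter) and 0.0093 (DESeq2), mt-Nd4 to -0.142 and mt-Cytb to -0.0481 without the Cpne7-led cluster, and leaving out 1 mouse gave -0.10 to 0.30 (mt-Nd4), -0.048 to 0.34 (mt-Cytb) and -0.32 to 0.025 (mt-Co1).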
